A study of Mus musculus with 12 samples.

Results

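The enzymes and transporters of glycolysis, the pentose phosphate pathway, the pyruvate dehydrogenase complex and the tricarboxylic acid (TCA) cycle were examined in B cells from Peyer's patches (PP), the lymphoid follicles of the small intestine wall. The list holds 43 genes of the 36175 in the table, chosen by name and pathway, and 39 of them reached a value of 1 in all 12 mice and were tested. Bulk RNA-seq had been performed on PP B cells of 6 sham controls and 6 stroke mice, with 1 library per mouse. All 12 animals were male wild-type C57BL/6JHsd mice of 10 to 12 weeks. Stroke was transient occlusion of the middle cerebral artery by a filament for 1 h, followed by reperfusion, and sham controls had the same surgery with the filament withdrawn at once. Cells were collected 18 h after surgery with a negative-selection B cell kit, which left some intestinal epithelial and endothelial cells behind, and then with CD45 beads. The libraries therefore represent the B cells that were still in the PP at that time. In bulk samples, fewer cells of a type and less RNA per cell cannot be told apart.

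Glycolysis splits glucose into pyruvate in the cytosol, and lactate dehydrogenase turns pyruvate into lactate, which leaves the cell through monocarboxylate transporters. The pentose phosphate pathway branches off at glucose 6-phosphate and yields NADPH and ribose for nucleotides. The pyruvate dehydrogenase complex feeds pyruvate carbon as acetyl-CoA into the TCA cycle of the mitochondrion. B cells raise glucose uptake and glycolysis when activated, and plasma cells need glucose for antibody glycosylation. Several steps exist as isoenzymes from separate genes, such as the liver, muscle and platelet forms of phosphofructokinase.

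The table gives expression on a TPM scale, which is per transcript length, so levels of different genes can be set side by side. All 7 B cell markers were detected in every mouse, with sums between 1708 and 2789. Sums of 9 epithelial markers were 1718 in sham mouse 1, 1619 in sham mouse 2 and 36 in sham mouse 6, between 210.9 and 504.5 in the other 3 sham mice, and between 32.7 and 854 in the stroke mice. Sums of 6 plasma cell markers were 1377, 1229 and 241.5 in sham mice 1, 2 and 6 and ranged from 320.8 to 1001 in the stroke mice. Of 59 genes in 9 marker lists, 37 were tested and 0 were called at an unadjusted p under 0.05. All 5 epithelial markers tested had a lower mean log2 value in stroke mice, with a median difference of -1.64. The neutrophil markers Ly6g, Retnlg, S100a8 and S100a9 were listed at 0 in at least 1 mouse, whereas Cxcr2, Mpo and Csf3r were above 0 in every mouse. Sums of the 7 neutrophil markers were 4.71 to 7.34 in sham controls and 4.69 to 9.40 in stroke mice. Sums of 6 T cell markers were 72.2 to 114 in sham controls and 60.5 to 143 in stroke mice. The table's column totals ran from 559570 in sham mouse 6 to 1404340 in sham mouse 1, and sham mouse 6 is named below wherever it decided a result.

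Of the 43 genes, 41 had a promoter in the RefSeq table of GRCm38.p6. The 250 bases before the farthest upstream start of that table are shown for 3 of them. The GENCODE gene of Ldha begins farther upstream than this RefSeq start, so its window lies within the GENCODE gene. Eno1 and Ldha are the highest enolase and lactate dehydrogenase genes of these cells and were high in sham mice 1 and 2 and low in sham mouse 6, whereas Eno3 was lowest in sham mouse 1 and was higher after stroke. Capitals mark the core of the hypoxia response element, ACGTG or GCGTG, read on either strand, so that the reverse complements CACGT and CACGC are marked too. Overlapping matches in the palindrome CACGTG count as 2.
Eno1, chr4:150236458-150236707, plus strand: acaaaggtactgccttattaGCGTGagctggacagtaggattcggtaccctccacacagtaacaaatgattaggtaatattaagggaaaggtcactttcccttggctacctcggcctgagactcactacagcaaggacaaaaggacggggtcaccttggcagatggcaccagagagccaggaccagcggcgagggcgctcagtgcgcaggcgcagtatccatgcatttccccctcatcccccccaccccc
Ldha, chr7:46845554-46845803, plus strand: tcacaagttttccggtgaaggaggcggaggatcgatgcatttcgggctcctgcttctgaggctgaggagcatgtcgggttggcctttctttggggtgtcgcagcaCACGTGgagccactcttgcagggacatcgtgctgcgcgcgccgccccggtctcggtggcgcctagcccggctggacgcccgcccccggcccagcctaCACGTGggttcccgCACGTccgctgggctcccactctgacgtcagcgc
Eno3, chr11:70656926-70657175, plus strand: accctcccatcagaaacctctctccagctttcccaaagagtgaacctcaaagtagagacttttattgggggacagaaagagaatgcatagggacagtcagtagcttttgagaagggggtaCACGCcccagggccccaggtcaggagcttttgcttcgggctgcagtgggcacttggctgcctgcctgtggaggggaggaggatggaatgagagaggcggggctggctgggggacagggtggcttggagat
The Ldha window held 5 matches, including 2 copies of CACGTG, and the Eno1 and Eno3 windows held 1 match each. At least 1 match was found in 31 of the 41 member promoters (75.6%), in 56.6% of the 9146 promoters that could be matched to genes tested and in 38.6% of all 27025 promoters of the table. The median GC content of these windows was 59.2%, 59.2% and 52.0%, respectively. CACGTG alone was found in 3 of the 41 member promoters (7.32%), in 8.44% of the promoters matched to genes tested and in 6.04% of all promoters. The members with CACGTG were Pfkm, Ldha and Slc16a1.

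Among the members, the enolase and lactate dehydrogenase signals came mostly from Eno1 and Ldha, the hexokinase signal mainly from Hk1 and the phosphofructokinase signal mainly from Pfkp. Gapdh, the glyceraldehyde 3-phosphate dehydrogenase, had the highest mean level of the list, with 335 ± 184 in sham controls and 276 ± 86.7 in stroke mice (mean ± SD, n = 6 per group). Sdha, the flavoprotein subunit of succinate dehydrogenase, was next with 196 ± 36.7 and 196 ± 20.7, followed by Eno1, Pkm, Aldoa, Mdh2 and Ldha. The ranges of neighbours in this order overlapped in both groups. Hk1 made up 71.4 ± 5.21% of the summed signal of Hk1, Hk2 and Hk3 in sham controls and 71.3 ± 2.29% in stroke mice. Hkdc1, another hexokinase-type gene outside the list, is left out of that sum. With it, the Hk1 share was 62.4 ± 11.1% in sham controls, from 51.3% in sham mouse 2 to 75.2% in sham mouse 3, and 66.8 ± 3.81% in stroke mice. Ldha accounted for 98.8 to 99.8% of Ldha and Ldhb together in sham controls and stroke mice. Pfkp contributed 62.7 ± 4.61% of the phosphofructokinase signal in sham controls and 61.1 ± 3.95% in stroke mice, and Pfkl 34.9 ± 3.88% and 34.1 ± 4.72%.

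**Figure D1:**
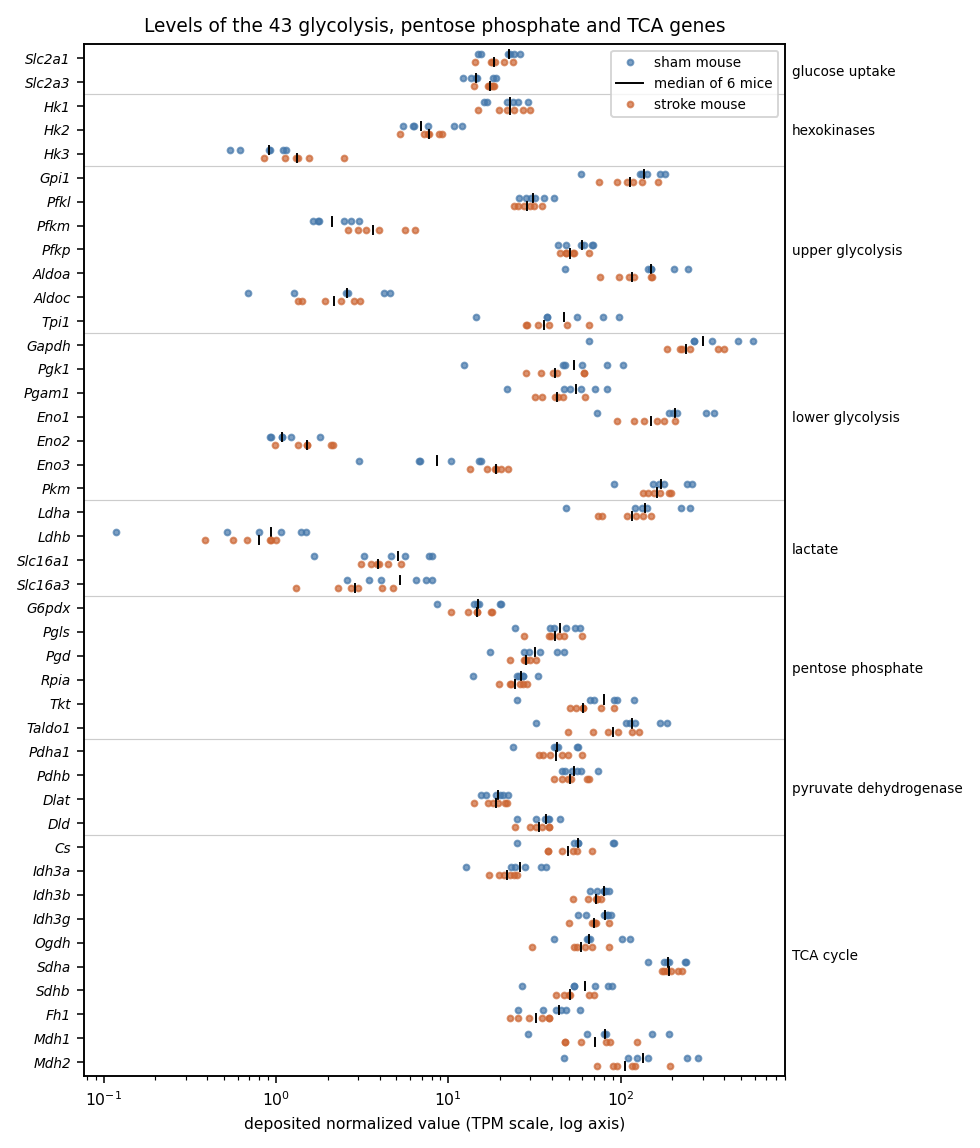
Deposited normalized value (TPM scale, log axis) of the 43 genes by pathway, with 1 point per mouse and a black tick at the median of 6 mice. Gapdh is the highest gene, and Hk3, Aldoc, Eno2 and Ldhb lie near or under 1 in some mice and were not tested. A zero value cannot be drawn on this axis, and a second, near-empty Aldoa entry is left out.

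After stroke, 2 isoenzyme genes of glycolysis were called as higher and 1 lactate transporter gene as lower, and no other member passed the test. Pfkm, the muscle form of phosphofructokinase, had 2.24 ± 0.588 in sham controls and 4.16 ± 1.53 in stroke mice, and Eno3, the muscle form of enolase, 9.59 ± 4.98 and 18.4 ± 3.04. Slc16a3, the lactate exporter MCT4, had 5.36 ± 2.27 and 3.04 ± 1.25, and its call was lost when some single mice were left out. These calls use an unadjusted p under 0.05 in limma. Of all 12590 genes tested, 6.12% passed it, 4.42% as higher and 1.69% as lower in stroke mice. That was 557 genes higher and 213 lower, against 348 and 69 with equal totals and 378 and 327 with quantile normalization. The 3 of 39 members (7.69%) are near that background. With Benjamini-Hochberg adjustment over all genes, 0 members were called, and 0% of all genes. In no member were the 6 stroke mice separate from the 6 sham controls, while 0.437% of all genes tested showed such a separation. The remaining 36 members had differences between -0.46 and 0.17 on the log2 scale, with the smallest p at 0.0643.

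**Figure D2:**
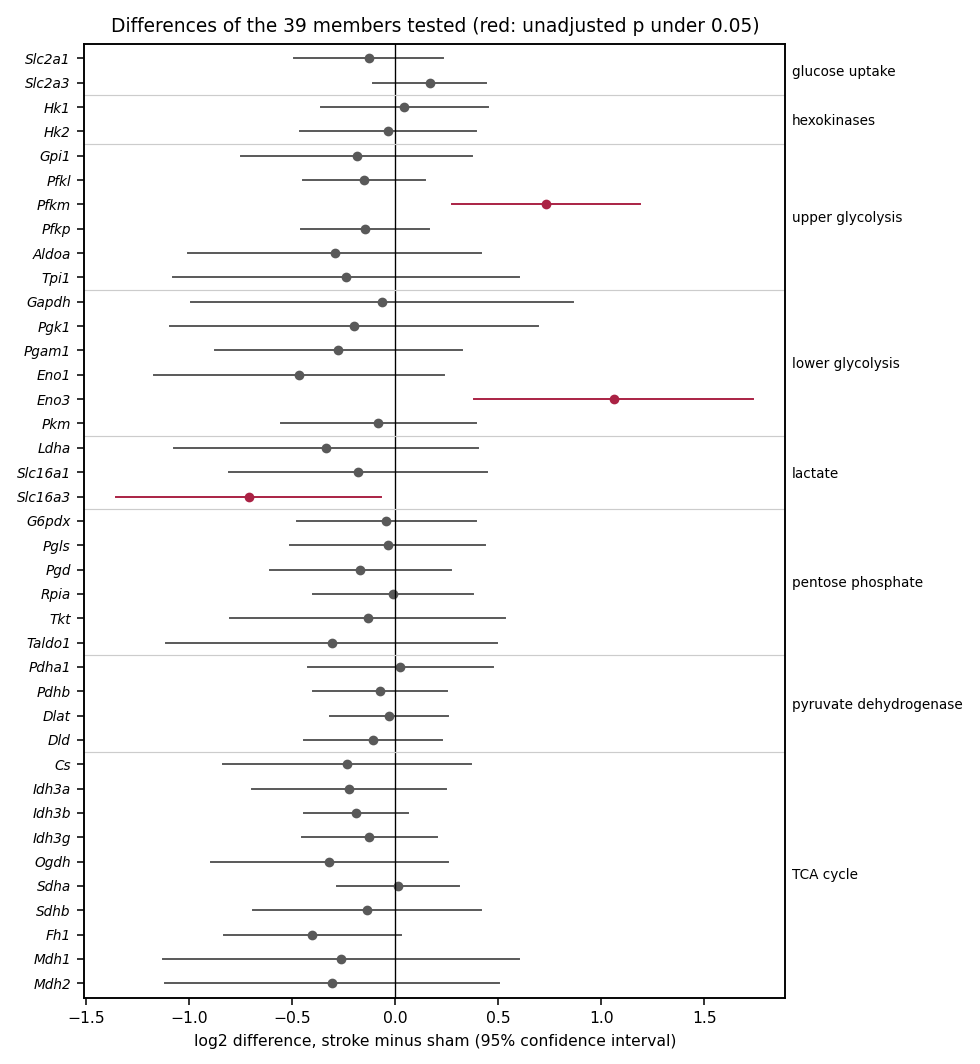
Log2 difference between stroke and sham for the 39 members tested, with 95% confidence intervals from limma, grouped by pathway. Pfkm and Eno3 lie above 0 and Slc16a3 below 0 (red), and the intervals of the other 36 members include 0.

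Eno3 converts 2-phosphoglycerate to phosphoenolpyruvate, as Eno1 does, and is known from skeletal muscle. Its gene (ENSMUSG00000060600) lies at chr11:70657202-70662513 on GRCm38 and overlaps no other annotated gene. In sham controls 1 to 6 its values were 3.05, 6.73, 6.82, 15.0, 10.4 and 15.5. In stroke mice 1 to 6 they were 13.3, 18.6, 16.8, 20.4, 19.0 and 22.1. Thus 5 of 6 stroke mice were above the highest sham control, and stroke mouse 1 lay within the sham range. The difference was 1.06 ± 0.31 (SE) on the log2 scale, with a 95% confidence interval from 0.38 to 1.74 (limma p = 0.00482, adjusted p = 0.716, exact two-sided permutation p = 0.00866). Eno3 was called in all 12 fits that left out 1 mouse, with differences between 0.79 and 1.23. The epithelial marker sum was highest in sham mice 1 and 2, where Eno3 was lowest, and sham mouse 6, with the lowest epithelial sum of the sham controls, had the highest Eno3 of the sham controls. The part of epithelial content in this difference was not tested.

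Because Eno1 was far more abundant, Eno3 remained a minor enolase in both groups. Eno1 values in sham controls 1 to 6 were 314, 349, 201, 212, 192 and 73.2, and in stroke mice 1 to 6 they were 207, 164, 179, 137, 95.2 and 120.5. All stroke mice lay within the sham range. Eno1 differed by -0.46 ± 0.33 (adjusted p = 0.815). Eno3 made up 5.83 ± 5.92% of the enolase signal in sham controls, from 0.956% in sham mouse 1 to 17.2% in sham mouse 6, and 11.5 ± 4.04% in stroke mice, from 6.02% to 16.5%. The share in sham mouse 6 exceeded that in every stroke mouse, and the next highest sham control had 6.58%. Eno2, the neuronal form, was not tested and had levels of 1.18 ± 0.329 and 1.6 ± 0.442. Eno1b, a near-identical copy of Eno1, had values up to 3.08, and kallisto may divide reads between such copies, so the Eno1 level is uncertain.

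Pfkm, together with Pfkl and Pfkp, phosphorylates fructose 6-phosphate in the committing step of glycolysis. The gene (ENSMUSG00000033065) lies at chr15:98092589-98132451. Sham controls 1 to 6 had 1.76, 2.72, 1.65, 3.05, 1.78 and 2.47, and stroke mice 1 to 6 had 5.60, 3.98, 2.62, 3.34, 6.44 and 2.98. The 2 highest values belonged to stroke mice 1 and 5, 4 of 6 stroke mice were above all sham controls, and the groups overlapped between 2.62 and 3.05. The difference was 0.73 ± 0.21 (95% confidence interval 0.28 to 1.19, p = 0.00404, adjusted p = 0.716, exact two-sided permutation p = 0.0108). It was called in all 12 fits that left out 1 mouse, with differences between 0.61 and 0.84. Pfkm contributed 1.70 to 3.52% of the phosphofructokinase signal in sham controls and 3.43 to 6.71% in stroke mice. Pfkl and Pfkp themselves did not pass the test, with differences of -0.15 ± 0.14 and -0.15 ± 0.14. Pfkm overlaps Senp1 on the opposite strand and the antisense RNA gene Gm26513, which is annotated on the strand of Pfkm. Senp1 was not called (0.16 ± 0.11, adjusted p = 0.815). The strand setting of the libraries was not given in the sources used here, so reads of Pfkm and Senp1 cannot be told apart where the transcripts overlap.

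Slc16a3 exports lactate from glycolytic cells, and Slc16a1 (MCT1) carries lactate in either direction. The Slc16a3 gene (ENSMUSG00000025161) lies at chr11:120948480-120960868 and overlaps no other annotated gene. In sham controls 1 to 6 Slc16a3 had values of 6.46, 7.47, 4.07, 8.06, 3.47 and 2.60. In stroke mice 1 to 6 the values were 4.77, 2.71, 4.14, 1.31, 2.30 and 3.01. Sham mice 1, 2 and 4 stood above all stroke mice, whereas the other 3 sham controls lay within the stroke range. The difference was -0.71 ± 0.30 (95% confidence interval -1.35 to -0.07, p = 0.0331, adjusted p = 0.791), and the exact two-sided permutation test gave p = 0.0649. The call was lost without sham mouse 1 (difference -0.64), sham mouse 2 (-0.60), sham mouse 4 (-0.58), stroke mouse 2 (-0.70), stroke mouse 4 (-0.53) or stroke mouse 5 (-0.66). Macrophage marker sums were 311 and 210.5 in sham mice 1 and 2, 34.0 to 116 in the other sham controls and 45.8 to 172 in the stroke mice. The part of macrophages or epithelial cells in this difference was not tested.

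**Figure D3:**
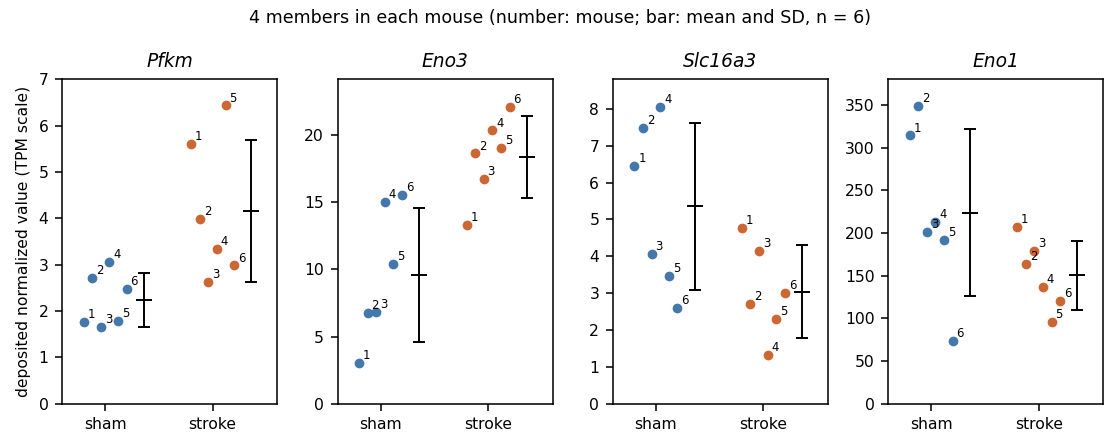
Deposited normalized values (TPM scale) of Pfkm, Eno3, Slc16a3 and Eno1 in each mouse, with the mouse number beside each point and bars for the mean and SD of 6 mice. For Eno3, 5 of 6 stroke mice lie above the highest sham control, and for Slc16a3 the 3 high sham controls are mice 1, 2 and 4. Eno1 is shown for comparison and was not called.

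The glucose transporters were close in both groups. Slc2a1 (GLUT1) had a lowest, median and highest value of 14.9, 22.6 and 26.2 in sham controls and 14.3, 18.4 and 23.8 in stroke mice, a difference of -0.13 ± 0.17. Slc2a3 (GLUT3), a high-affinity transporter, had 12.1, 14.6 and 18.9 in sham controls and 14.1, 17.5 and 18.4 in stroke mice, a difference of 0.17 ± 0.13 with a 95% confidence interval from -0.11 to 0.44. The 2 tested hexokinases, which trap glucose by phosphorylation, gave 0.05 ± 0.19 for Hk1 and -0.04 ± 0.20 for Hk2. Hk1 ranged from 16.1 to 29.1 with a median of 22.9 in sham controls and from 14.9 to 30 with a median of 23.0 in stroke mice, and Hk2 from 5.46 to 12.0 (median 6.95) and from 5.27 to 9.16 (median 7.71). Hk3 fell under the level filter, with 0.872 ± 0.247 in sham controls and 1.45 ± 0.562 in stroke mice, and 4 of 6 stroke mice were above every sham control. The Hk3 share of the signal of Hk1, Hk2 and Hk3 ranged from 1.75 to 4.48% in sham controls and from 2.29 to 7.84% in stroke mice.

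**Figure D4:**
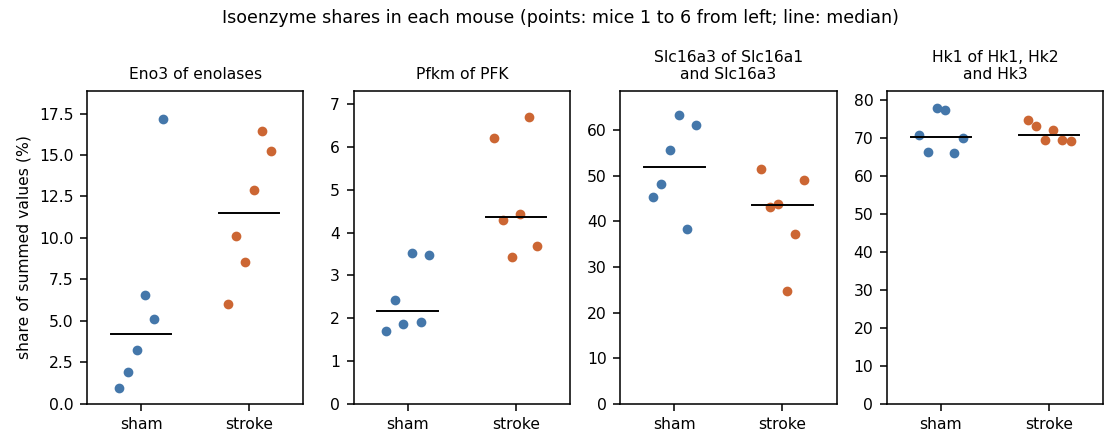
Share of summed isoenzyme signal (%) in each mouse for Eno3 among enolases, Pfkm among phosphofructokinases, Slc16a3 among Slc16a1 and Slc16a3, and Hk1 among Hk1, Hk2 and Hk3, with a line at the median. Sham mouse 6 has the highest Eno3 share (17.2%), and the Hk1 share is near 71% in both groups.

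Among the abundant glycolytic genes, no member was called, and the sham controls were widely spread. Aldoa, which splits fructose 1,6-bisphosphate, had a lowest, median and highest value of 47.6, 150 and 246 in sham controls and 76.3, 116 and 153 in stroke mice. Gpi1, which makes fructose 6-phosphate, had 58.7, 137 and 180.3 in sham controls against 74.6, 114 and 164. For Gapdh the values were 66.0, 303 and 590.2 in sham controls and 186, 239 and 398 in stroke mice. In all 3 genes the stroke mice lay within the sham range. Their differences were -0.29 ± 0.33, -0.19 ± 0.26 and -0.06 ± 0.43, and the last changed sign under other scalings. Tpi1, Pgk1, Pgam1 and Pkm, the triose phosphate isomerase, phosphoglycerate kinase, phosphoglycerate mutase and pyruvate kinase genes, differed by -0.24, -0.20, -0.28 and -0.08 on the log2 scale. Gapdh, Eno1, Pgk1 and others have many near-identical pseudogenes, between which the authors' counting could split reads, so their levels are uncertain. Aldoc had 2.66 ± 1.55 in sham controls and 2.17 ± 0.728 in stroke mice and was not tested.

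Lactate genes other than Slc16a3 did not pass the test. Ldha, the M subunit of lactate dehydrogenase at chr7:46841475-46855627, had a lowest, median and highest value of 48.4, 138 and 254 in sham controls and 73.8, 116 and 150.3 in stroke mice. Its difference was -0.33 ± 0.34, with a 95% confidence interval from -1.07 to 0.40. Ldhb was hardly detected, with 0.901 ± 0.530 and 0.749 ± 0.245. Slc16a1 had values of 1.66, 5.11 and 8 in sham controls and 3.12, 3.93 and 5.29 in stroke mice, a difference of -0.18 ± 0.29. The Slc16a3 share of both transporters was 52.0 ± 9.71% in sham controls and 41.6 ± 9.66% in stroke mice, and these shares overlapped.

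In the pentose phosphate pathway, 0 of 6 genes were called. The oxidative enzymes G6pdx, Pgls and Pgd, which yield NADPH, differed by -0.04, -0.04 and -0.17 on the log2 scale, and Rpia, the ribose 5-phosphate isomerase, by -0.01. The non-oxidative enzymes had higher levels. Taldo1, the transaldolase, had a lowest, median and highest value of 32.1, 117 and 187 in sham controls and 49.8, 90.5 and 127 in stroke mice. For Tkt, the transketolase, the values were 25.2, 80.6 and 119.8 against 50.8, 60.2 and 91.2. Stroke mice lay within the sham range for both genes, and the differences were -0.31 ± 0.37 and -0.13 ± 0.31. In all 6 genes sham mouse 6 was the lowest of the 12 mice.

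The pyruvate dehydrogenase complex was the pathway group with the narrowest spread among sham controls. Pdhb, the beta subunit of the first enzyme, ranged from 46.1 to 73.7 (median 54.0) in sham controls and from 40.9 to 65.7 (median 50.7) in stroke mice. Pdha1, the alpha subunit, ranged from 23.8 to 56.6 (median 42.5) and from 33.7 to 59.5 (median 42.4). The 4 subunits differed by 0.03 (Pdha1), -0.07 (Pdhb), -0.03 (Dlat) and -0.11 (Dld) on the log2 scale, with 95% confidence intervals that stayed between -0.44 and 0.48. The median SD within sham controls was 0.26 for this group, on the log2 scale, against 0.81 for the 6 tested genes of lower glycolysis. It was close to the 0.29 of glucose uptake and the 0.31 of all genes tested. Among stroke mice, glucose uptake was narrower, with 0.19 against 0.26.

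Of the 10 TCA cycle genes, 0 were called. Sdha ranged from 144 to 240.0 with a median of 188 in sham controls and from 175 to 227 with a median of 191 in stroke mice, a difference of 0.01 ± 0.14. Mdh2, the mitochondrial malate dehydrogenase, ranged from 47.0 to 281 (median 134) and from 72.9 to 195 (median 107), a difference of -0.31 ± 0.38. Fh1, the fumarase, came nearest to the threshold, from 42.5 ± 11.3 to 31.7 ± 6.72, with a difference of -0.40 ± 0.20 (95% confidence interval -0.83 to 0.03, adjusted p = 0.791). All 6 stroke mice had less Fh1 than the mean of the sham controls on the log2 scale, and the same was true of Idh3a and Idh3b, subunits of the NAD-dependent isocitrate dehydrogenase. When 1 mouse was left out, the Fh1 difference ranged from -0.54 to -0.30. Fh1 passed the threshold only without sham mouse 6 (-0.54), without stroke mouse 1 (-0.46) and without stroke mouse 4 (-0.46) among these fits. With all 12 mice kept it also passed with median-of-ratios scaling (-0.40), quantile normalization (-0.39) and the replicate block (-0.40). Idh3a, Idh3b and Idh3g differed by -0.22 ± 0.22, -0.19 ± 0.12 and -0.12 ± 0.15. Cs, Ogdh, Sdhb and Mdh1, the citrate synthase, 2-oxoglutarate dehydrogenase, succinate dehydrogenase iron-sulfur subunit and cytosolic malate dehydrogenase genes, differed by -0.23, -0.32, -0.14 and -0.26.

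Over the list, 33 of 39 members had a lower mean log2 value in stroke mice, with a median difference of -0.15, against 48.6% of all genes tested and a median of 0.01. When each mouse was rescaled to the same total, the median over all genes moved to 0.13, and then 23 of 39 members were negative with a median of -0.02, so that relative to all genes the median of the members was lower under both scalings. The members are not independent of each other, since most of them were high or low in the same mice. Of the 39 members, 24 were lowest in sham mouse 6 (61.5%, against 27.2% of all genes tested), and in 25 the highest pair was sham mice 1 and 2 (64.1%, against 13.8%). The median deviation of the members from their 12-mouse mean was 0.50 and 0.62 in sham mice 1 and 2 and -0.78 in sham mouse 6, on the log2 scale. It ranged from -0.01 to 0.15 in the other sham controls, and from -0.42 in stroke mouse 5 to 0.26 in stroke mouse 1. Over all genes tested, these median deviations stayed between -0.13 and 0.09. That range does not show how far another set of genes that vary together would move. Sham mice 1 and 2 also had the highest epithelial and plasma cell marker sums, and sham mouse 6 the lowest plasma cell sum of the 12. The part of these cells in the members' levels was not tested.

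**Figure D5:**
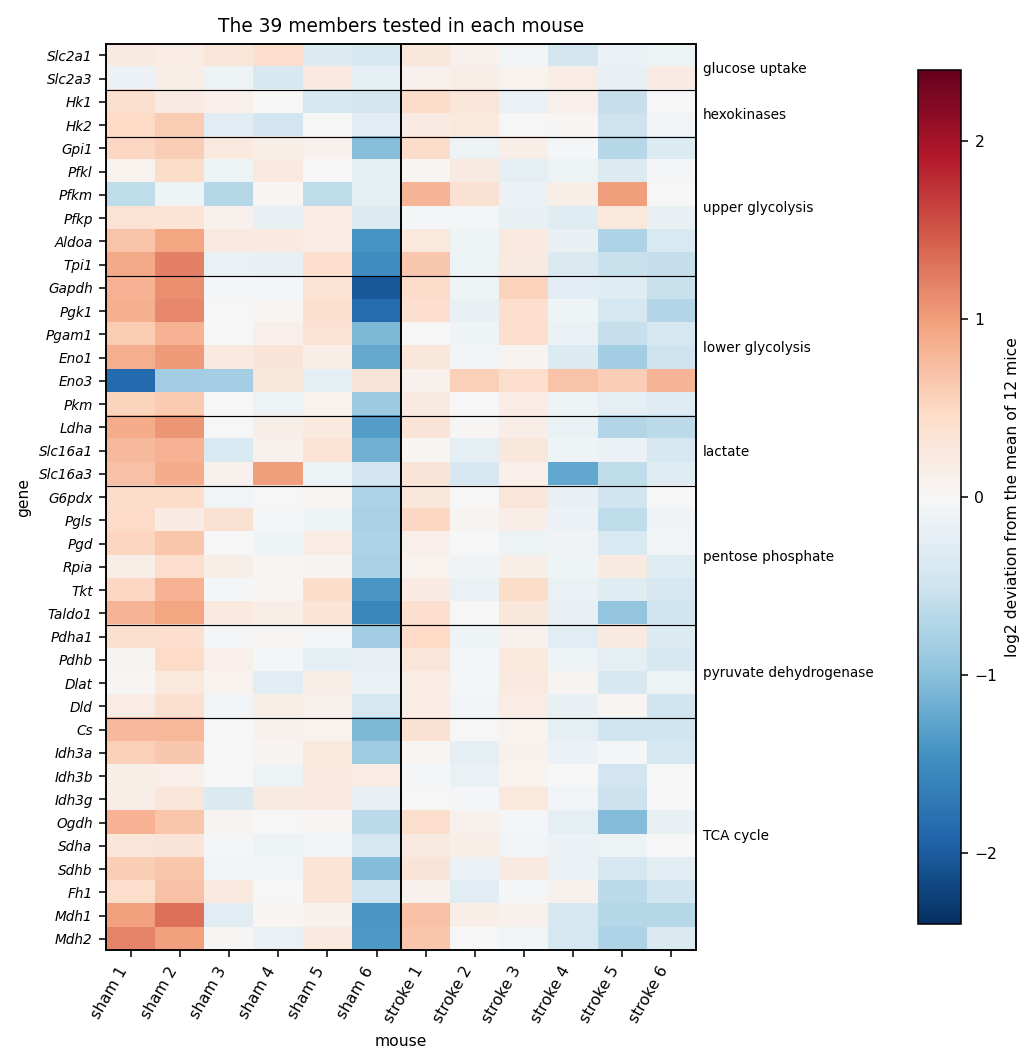
Log2 deviation of each tested member (rows, by pathway) from its mean over the 12 mice (columns), with red for higher and blue for lower. Sham mice 1 and 2 are red and sham mouse 6 is blue over most pathways, while Eno3 and Pfkm run differently.

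The members varied more among sham controls than among stroke mice. The median SD on the log2 scale was 0.53 in sham controls and 0.31 in stroke mice, against 0.31 and 0.28 over all genes tested, and 34 of 39 members (87.2%) had the larger SD in sham controls, against 60.4% of all genes. The widest range over the 12 mice was that of Gapdh, with 8.89-fold between the lowest and the highest mouse, followed by Pgk1 with 8.04-fold, on the log2(value + 0.5) scale. Slc2a3, Dlat and Pfkp had the narrowest, with 1.54-fold, 1.55-fold and 1.61-fold. Within each mouse, the mean log2 value of upper and lower glycolysis less that of the TCA cycle was -0.35 ± 0.13 in sham controls (-0.54 to -0.18) and -0.16 ± 0.10 in stroke mice (-0.24 to 0.03), so the ranges overlapped. Eno3 and Pfkm belong to the glycolytic mean, and this difference was not tested.

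Without sham mouse 6, 14 of 39 members were called (35.9%). Of the genes tested in that fit, 16.6% were called, 7.39% as higher and 9.18% as lower in stroke mice. The 2 members called as higher were again Pfkm and Eno3. The 12 called as lower were Gpi1 (-0.41), Aldoa (-0.60), Pgk1 (-0.59), Pgam1 (-0.52), Eno1 (-0.75), Ldha (-0.63), Slc16a3, Tkt (-0.43), Taldo1 (-0.65), Cs (-0.47), Idh3a (-0.41) and Fh1 (-0.54). The lowest adjusted p among these 12 was 0.238, for Eno1. With sham mice 1, 2 and 6 all left out, a choice made after the data were seen, Pfkm and Eno3 were the 2 members called, 0 were called as lower, and the median difference of the members was -0.12. With 3 sham controls in that fit, the differences of Eno1 (-0.47), Aldoa (-0.36), Gpi1 (-0.26), Ldha (-0.29) and Slc16a3 (-0.68) were still negative.

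Other genes of these pathways were read from the same fit. Of 69 listed, 57 were tested and 3 were called, all as higher: Mlxip, Ldhd and Me3. Their share of 5.26% is near the shares over all genes tested, 6.12% called in either direction and 4.42% called as higher. Mlxip encodes MondoA, a transcription factor that senses glucose 6-phosphate and drives Txnip. Its lowest, median and highest values were 51.7, 63.4 and 95.8 in sham controls and 82.0, 107 and 250 in stroke mice, and 4 of 6 stroke mice were above all sham controls. The difference was 0.79 ± 0.25 (p = 0.00704, adjusted p = 0.716, exact two-sided permutation p = 0.0130), and it was called in all 12 fits that left out 1 mouse. Txnip, which restrains glucose uptake, had 83.0, 147 and 160.3 in sham controls and 134, 157 and 454 in stroke mice, a difference of 0.55 ± 0.29 (adjusted p = 0.791). The highest values of Mlxip and Txnip both belonged to stroke mouse 5. Txnip passed the threshold without stroke mouse 6 (0.65) and with equal totals (0.68). When 1 mouse was left out, its differences ranged from 0.30 to 0.65.

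Ldhd, the mitochondrial D-lactate dehydrogenase, had 3.60 ± 0.863 in sham controls and 5.01 ± 0.690 in stroke mice (0.45 ± 0.16, p = 0.0147, adjusted p = 0.749, exact two-sided permutation p = 0.00649), and 5 of 6 stroke mice were above all sham controls. Ldhd overlaps Znrf1 on the opposite strand. Znrf1 was also higher in stroke mice (0.86 ± 0.22, adjusted p = 0.716), and reads of the overlap cannot be told apart. The Ldhd call was lost with equal totals (0.55) and without sham mice 1, 2 and 6 (0.26). Me3, a mitochondrial malic enzyme, had 1.90 ± 0.5 and 2.58 ± 0.459 (0.37 ± 0.16, p = 0.0382, adjusted p = 0.791, exact two-sided permutation p = 0.0281). It was called in 5 of the 12 fits that left out 1 mouse and was lost without sham mice 1, 3, 4 or 5 or stroke mice 1, 2 or 6, with differences between 0.25 and 0.38 in those 7 fits. It was also lost with equal totals (0.45) and quantile normalization (0.29).

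Regulators of glycolysis other than Mlxip were not called. Pfkfb3, which makes the activator fructose 2,6-bisphosphate, had 37.1 ± 3.74 and 47.5 ± 13.3 (0.32 ± 0.15, adjusted p = 0.791). Its highest value was 74.3 in stroke mouse 5, against a stroke median of 42.3. When 1 mouse was left out, its differences ranged from 0.19 to 0.36. Pfkfb3 passed the threshold without stroke mouse 1 (0.36), stroke mouse 2 (0.36) or stroke mouse 3 (0.36). With all 12 mice kept it passed with no filter, the replicate block, quality weights and the intensity trend. Pfkfb1, Pfkfb2 and Pfkfb4 differed by 0.35, -0.10 and -0.12. Hif1a, the oxygen-regulated subunit of the hypoxia-inducible factor, had 52.0 ± 11.6 and 45.8 ± 4.78 (-0.15 ± 0.16, adjusted p = 0.863). It was called as lower without sham mouse 6 (-0.30) and, with all 12 mice kept, with quality weights (-0.26). Myc, an activator of many glycolytic genes, had 31.9 ± 8.77 and 31.3 ± 10.7 (-0.08 ± 0.30), and Tigar, which lowers fructose 2,6-bisphosphate, differed by -0.15 ± 0.19. The gluconeogenic genes Fbp1 and Fbp2 and the regulator Mlxipl were under the level filter and were not tested. Fbp2 ranged from 0.149 to 34.4 in sham controls and from 0.198 to 15.4 in stroke mice.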

How the data were processed

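The authors sequenced RNA of PP B cells with 1 library per mouse. Per the methods, reads were trimmed with Trimmomatic 0.39, quantified with kallisto 0.48.0 against GRCm38 transcripts and tested with sleuth 0.30.0 in R 4.1.2. The deposited table holds 1 expression signal per gene and mouse, named normalized TPM. The column totals differ, from 559570 to 1404340, so the values were treated as a signal on a TPM scale, although the design had assumed plain TPM. The 10 highest genes held 45.8%, 41.4% and 14.7% of the total in sham mice 1, 2 and 6, and 27.2 to 34.4% in the other mice. Rescaling to equal totals therefore depends in part on these few genes. The table has no read counts, so depth is unknown and counting error was not computed.

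Genes that reached 1 in all 12 mice (12590) were tested on log2(value + 0.5) by limma 3.58.1 (R 4.3.3). No block was used, and p was adjusted over all genes after Benjamini-Hochberg. Differences are stroke minus sham on this scale, which understates changes of low genes, and are given ± SE with n = 6 per group. Single genes that were called were also compared by an exact permutation test over all 924 assignments of mice. Groups and replicate numbers came from the sample labels, and 0 columns belonged to no sample. The members, gene lists, marker lists and tests were chosen with earlier results of these data known. Named were all members, the called genes among the other pathway genes, and the regulators. Alternatives were other pseudocounts, filters, scalings and variance models, the replicate block, leaving out each mouse and, added after the data were seen, leaving out sham mice 1, 2 and 6 together. The limma script was tested on simulated data. Gene positions are from GENCODE M21 and promoter sequences from RefSeq (GRCm38.p6). Sequences of proteins were not used here.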

Additional observations from a re-analysis of the deposited data

Results flagged for a closer look

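In groups of 6 mice, the gap between the most extreme mouse and its nearest neighbour was compared with the range of the group on the log2 scale, and was taken as large when the quotient exceeded Dixon's critical value at the 95% level. Chance alone gives about 1 such group in 20, and 78 groups were examined for 39 members. Sham mouse 6 stood apart as the lowest sham control in 6 members. For Gpi1 the quotient was 0.704, with a value of 58.7 against 129 to 180 in the other sham controls. For Aldoa it was 0.675, with 47.6 against 145 to 246. For Gapdh it was 0.634, with 66.0 against 265 to 590. Rpia gave 0.668, with 14 against 25.0 to 33.2. Taldo1 gave 0.689, with 32.2 against 108 to 187, and Pdha1 gave 0.636, with 23.8 against 41.4 to 56.6. Among stroke mice, mouse 5 was the lowest for Slc2a3, with 14.1 against 17 to 18.4 and a quotient of 0.713. Members move together within a mouse, so these groups are not separate events.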

How the results depend on the processing

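Pfkm and Eno3 were called under all alternatives, with the same sign. The adjusted test called 0 members under all of them. Pseudocounts and the intensity trend kept all counts of members. The count of members called as higher was 2, and 3 with quality weights (Slc2a3, 0.26). The count of members called as lower was 1 in the main analysis and 2 with median-of-ratios scaling, quantile normalization or quality weights, ranged from 0 to 12 when 1 mouse was left out (12 without sham mouse 6), and was 0 without sham mice 1, 2 and 6. Over all genes, 770 were called (557 higher, 213 lower), 1768 with no filter, 417 with equal totals (348 higher, 69 lower), 1569 with quality weights and 567 to 2098 when 1 mouse was left out. The median difference of the members was -0.02 with equal totals, against -0.15, and ranged from -0.33 to -0.03 when 1 mouse was left out. Other filters changed no call of the members tested in the main analysis. Hk3, Aldoc, Eno2 and Ldhb, which were under the main filter, were left out of the member counts under every alternative. The looser filters therefore could not add a member to these counts, and whether these genes would be called there is not shown. The mean difference between glycolysis and TCA levels within mice moved by less than 1 SD under other pseudocounts and quantile normalization.

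The pairing of same-numbered mice was uncertain. The correlations of their deviations were 0.494, 0.212, 0.0761, 0.139, 0.0134 and 0.373 for numbers 1 to 6, with a mean of 0.218. Other pairs had a mean of -0.0414. Deviations from a group mean cancel out within the group, so this value is tied to that of the same-numbered pairs and is no separate baseline. Not every correlation exceeded 0.1, and the labels do not say what a number stands for. With the replicate number as a block, 1174 of all genes and 2 members as lower (Slc16a3 and Fh1) were called, and the members called as higher were unchanged. Not every sham mouse correlated best with the stroke mouse of its number.

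None of the 3 called members changed sign, but 15 of the 36 others did in at least 1 alternative, 13 of them outside the equal-totals scaling. Equal totals moved the median of all genes from 0.01 to 0.13, and with it the differences became Hk2 0.085, Gapdh 0.065, Pkm 0.046, G6pdx 0.082, Pgls 0.089, Rpia 0.11, Pdhb 0.051, Dlat 0.093, Dld 0.017, Idh3g 0.0014. With quantile normalization they became Gapdh 0.048, Rpia 0.0006, with quality weights Hk2 0.17, Pdha1 -0.13, Dlat 0.042, Sdha -0.0005, and without sham mice 1, 2 and 6 Hk2 0.23, Pdhb 0.0046. The cause of the other sign changes was not tested. Leaving out 1 mouse gave ranges of Hk1 -0.039 to 0.16, Hk2 -0.13 to 0.085, Gapdh -0.47 to 0.16, Pgk1 -0.59 to 0.012, Pkm -0.26 to 0.035, G6pdx -0.19 to 0.051, Pgls -0.20 to 0.080, Rpia -0.17 to 0.073, Tkt -0.43 to 0.019, Pdha1 -0.14 to 0.11, Pdhb -0.14 to 0.010, Dlat -0.084 to 0.045 and Sdha -0.071 to 0.075. Depth was unknown, so what it limits could not be given.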
